A study of Homo sapiens with 8 samples.

Results

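Transcripts of 10 NF-kB genes, chosen by name, were followed in human colorectal cancer cell lines: the subunit genes NFKB1, NFKB2, RELA and RELB, the inhibitor genes NFKBIA and NFKBIE, the feedback gene TNFAIP3, and the inducible genes TNFAIP2, BIRC3 and ICAM1. All 10 were among the 16829 genes of the deposited table, and all 10 were among the 14157 genes with enough counts to be tested. RNA-seq libraries came from 4 groups of 2 libraries each. RKO-Control are RKO cells whose genotype is given as normal for CYP1B1, and RKO-CYP1B1 are RKO cells with CYP1B1 overexpression. SW480-shNT are SW480 cells of the same stated genotype with a hairpin titled shNT, read here as non-targeting, and SW480-shCYP1B1 are SW480 cells with a hairpin against CYP1B1. CYP1B1 encodes a cytochrome P450 enzyme, and per the labels cells of both lines received a CYP1B1 lentivirus. RKO and SW480 are established lines from colon carcinoma. The knockdown rests on 1 hairpin, added and resident CYP1B1 transcripts cannot be told apart in RKO-CYP1B1, and the labels do not say whether clones or pools were used. They also do not say that libraries of a group are separate cultures, in which case the p-values below cover only the spread between these libraries, which may be technical.

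NF-kB is a family of dimeric transcription factors that are held inactive in the cytoplasm by inhibitor proteins and released when kinases mark those inhibitors for destruction. In the canonical arm the dimer is mostly RELA with the processed product of NFKB1. In the noncanonical arm, RELB pairs with the processed product of NFKB2. Active dimers switch on genes that stop the signal, among them the inhibitor gene NFKBIA and the ubiquitin-editing enzyme gene TNFAIP3, so transcripts of these feedback genes are widely used as readouts of the pathway. In colorectal carcinoma cells the pathway is known for inflammatory and survival gene expression.

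Library totals ranged from 31550173 to 34921085 counts. Levels are given as CPM, a gene's counts relative to the library total, after scaling by the trimmed mean of M-values (TMM), and a gene is said to rise or fall where its adjusted p was under 0.05 (edgeR quasi-likelihood test, Benjamini-Hochberg adjustment over all 14157 genes). CYP1B1 stood at 0.686 and 0.701 CPM in RKO-Control, 437 and 519 CPM in RKO-CYP1B1, 1.44 and 2.20 CPM in SW480-shNT and 0.367 and 0.301 CPM in SW480-shCYP1B1. Of 9 colorectal epithelial markers, 4 reached a mean of 1 CPM in each RKO group and 7 in each SW480 group; KRT20 and LGALS4 stayed under 1 CPM in all 8 libraries. The leukocyte marker PTPRC was at 0.26 CPM or less in every library, while CD68, another marker on that list, stood between 662 and 773 CPM in RKO. The RKO-CYP1B1 libraries differed from each other by a median of 0.19 on the log2 scale over 12616 genes, compared with 0.08 to 0.09 in the other groups.

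The promoters of the 10 genes are shown first, because several hold the decamer that NF-kB dimers are known to bind. RefSeq windows of 300 bases (250 before to 50 after a start site, GRCh38.p14) were present for 8 of the genes, in 12 windows; RELB and NFKBIE had no entry. The windows were searched on both strands with the NF-kB decamer consensus GGGRNNYYCC, whose matches can overlap each other. In it R is A or G, Y is C or T, and N is any base. A match was found in 5 genes, NFKB1, NFKB2, NFKBIA, TNFAIP3 and BIRC3, and in 6 of the 12 windows. Over all 35116 windows of that length, 11.3% held a match, as did 13.3% of 27305 genes in at least 1 window. Stretches are not printed below for a further BIRC3 match (GGAGTTCCCC, at -135 from the start site) and a further NFKB2 match (GGGGCTTCCC, at -176 from its downstream start). A match is a description of the letters and not a measured binding site. The windows of RELA, TNFAIP2 and ICAM1 without a match say nothing about binding outside them. They also say nothing about binding inside them at letters that depart from the consensus.

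The stretches below are 60 bases each, written 5′ to 3′ on the strand of the gene, with matches to the consensus in capitals. They lie at chr4:102501284-102501343 (plus strand, NFKB1), chr10:102394460-102394519 and chr10:102395658-102395717 (plus strand, at different start sites of NFKB2), chr14:35404797-35404856 (minus strand, NFKBIA), chr6:137867172-137867231 (plus strand, TNFAIP3) and chr11:102317259-102317318 (plus strand, BIRC3). For NFKB2, upstream and downstream name only the start sites whose windows held a match. A window of NFKB2 still further upstream (chr10:102393860-102394159) held none.
NFKB1: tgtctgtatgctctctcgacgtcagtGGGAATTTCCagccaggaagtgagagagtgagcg
NFKB2, upstream start: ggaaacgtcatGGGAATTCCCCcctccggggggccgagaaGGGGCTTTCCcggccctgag
NFKB2, downstream start: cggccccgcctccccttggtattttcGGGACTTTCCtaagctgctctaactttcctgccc
NFKBIA: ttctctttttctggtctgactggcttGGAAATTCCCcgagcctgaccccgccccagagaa
TNFAIP3: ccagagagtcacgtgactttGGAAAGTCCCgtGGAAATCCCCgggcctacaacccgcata
BIRC3: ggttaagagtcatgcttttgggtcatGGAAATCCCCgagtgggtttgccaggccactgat

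The genes lie on 6 chromosomes (GRCh38, GENCODE release 29). NFKB1 is on chromosome 4 from 102501329 to 102617302, NFKB2 on chromosome 10 from 102394110 to 102402529, RELA on chromosome 11 from 65653596 to 65663094 and RELB on chromosome 19 from 45001430 to 45038198. NFKBIA is on chromosome 14 from 35401511 to 35404749, NFKBIE on chromosome 6 from 44258166 to 44265788 and TNFAIP3 on chromosome 6 from 137867188 to 137883312. TNFAIP2 is on chromosome 14 from 103123442 to 103137439, BIRC3 on chromosome 11 from 102317450 to 102339403 and ICAM1 on chromosome 19 from 10270835 to 10286615. Antisense annotations cover 22.0% of the exon bases of ICAM1 in the largest case and 1.88% of those of TNFAIP3. The use of strand in counting is not given in the sources used here, so reads of such partners cannot be told apart from the gene's own.

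Between the control groups most of the 10 genes already stood at different levels in the lines. From RKO-Control to SW480-shNT, 8 of the 10 genes were higher in SW480, 1 was lower and 1 did not pass the test. Over all tested genes, 41.2% were called higher and 35.6% lower (76.8% in all). The libraries did not overlap for 9 of the 10 genes, compared with 90.1% of all tested genes. The median log2 difference of the 10 genes was 1.37, compared with 0.08 over all tested genes. Of 102 other tested pathway genes, 45 were higher and 40 lower in SW480-shNT, with a median of 0.0006. Cell line and vector differ together in this comparison and cannot be told apart, and it shares its libraries with the comparisons within each line.

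TNFAIP2 and BIRC3 showed the widest gaps of the 10 between the lines. TNFAIP2, which encodes a TNF-inducible protein linked to membrane protrusions, stood at 28.1 and 29.8 CPM in RKO-Control and at 371 and 375 CPM in SW480-shNT, a log2 difference of 3.69 (SE 0.09, adjusted p = 5.43e-12, edgeR). BIRC3, an inhibitor of apoptosis and ubiquitin ligase that acts on receptor-bound kinase complexes, differed by 2.08 (SE 0.19). RELB was higher by 1.70 (SE 0.11), TNFAIP3 by 1.59 (SE 0.16), ICAM1, a leukocyte adhesion receptor, by 1.44 (SE 0.09) and NFKBIA by 1.31 (SE 0.10). RELA did not pass the test (-0.01, SE 0.07, adjusted p = 0.935, and 0.04 with RLE scaling), and NFKB2 was lower in SW480-shNT by -0.58 (SE 0.10). NFKB1 was higher by 0.27 (SE 0.08, adjusted p = 0.0122), a call that was lost without either RKO-Control library or either SW480-shNT library (adjusted p from 0.0537 to 0.0989).

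Per unit of length, the ranking of the 10 genes also differed. In RKO-Control, RELA was the most abundant by mean FPKM (read level scaled to gene length and library total, as deposited), at 49.3, followed by NFKB2 at 41.6 and ICAM1 at 41.0. In SW480-shNT, ICAM1 led at 107.6, followed by TNFAIP2 at 85.5 and NFKBIA at 59.1, with RELA at 47.6. TNFAIP3 had the lowest FPKM of the 10 genes in all 4 groups, from 1.04 in RKO-CYP1B1 to 4.04 in SW480-shNT.

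**Figure D1:**
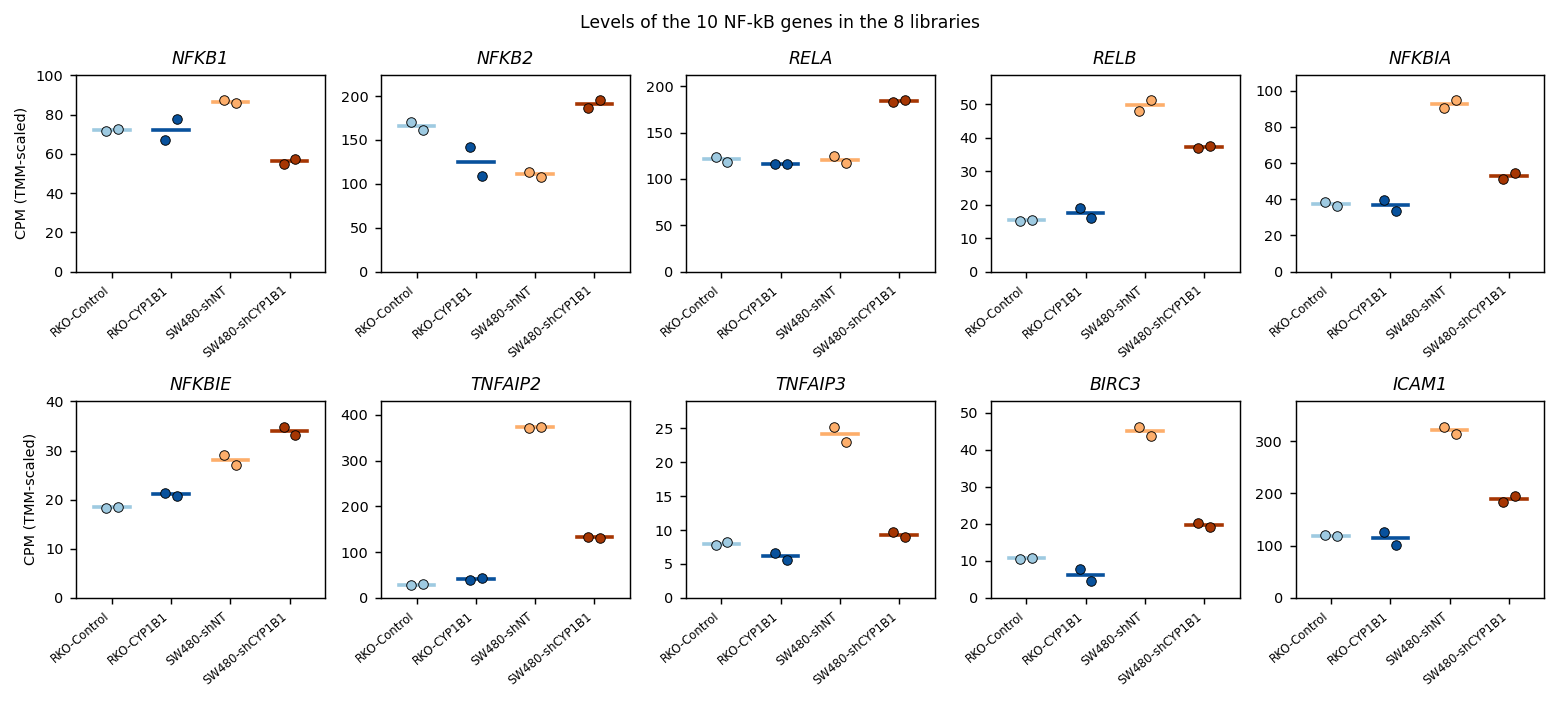
TMM-scaled CPM of each of the 10 genes (y axis, from 0) in the 4 groups (x axis); points are libraries and lines are group means. SW480-shNT is the highest group for 7 genes and SW480-shCYP1B1 for NFKB2, RELA and NFKBIE.

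With the CYP1B1 hairpin in SW480, all 10 genes changed. NFKBIA, TNFAIP3, TNFAIP2, BIRC3, ICAM1, NFKB1 and RELB fell, and NFKB2, RELA and NFKBIE rose. Feedback and inducible genes fell to between 0.36-fold and 0.59-fold of the SW480-shNT level, while RELA and NFKB2 rose 1.53-fold and 1.72-fold. Among all tested genes 25.3% were called lower and 25.3% higher (50.6% in all) in this comparison. The libraries of the groups did not overlap for any of the 10 genes, which held for 80.7% of all tested genes. The median log2 fold change of the 10 genes was -0.69, and that of all tested genes was 0.00 to 2 decimals. Of 7 tested epithelial markers, 4 fell and 2 rose with the hairpin, with a median log2 fold change of -0.86. EPCAM went from 131 CPM in both control libraries to 22.5 and 23.3 CPM, KRT19 from 489 and 456 CPM to 258 and 241 CPM, CDX2 from 84.5 and 78.3 CPM to 44.7 and 44.8 CPM, and VIL1 from 12.1 and 10.9 CPM to 1.5 and 1.0 CPM. Higher with the hairpin were CDH1 (5.97 and 6.58 CPM, then 9.93 and 8.93 CPM) and KRT8 (2137 and 2069 CPM, then 2524 and 2522 CPM). So was KRT18 (2429 and 2322 CPM, then 2830 and 2895 CPM). The summed level of the 9 listed markers, most of it KRT8 and KRT18, was 5075 to 5288 CPM in SW480-shNT and 5692 to 5736 CPM in SW480-shCYP1B1. The sum of 7 leukocyte markers was 10.4 to 11.7 CPM and 26.9 to 27.4 CPM, most of the gap being CD68 (5.36 and 6.87 CPM, then 22.5 and 24.4 CPM). CD14 went from 2.71 and 2.72 CPM to 1.99 and 1.95 CPM, LYZ from 1.67 and 1.62 CPM to 0.917 and 0.421 CPM, and PTPRC stayed near 0. CD3E went the other way, from 0.115 and 0.116 CPM to 0.917 and 0.511 CPM. Of 4 tested leukocyte markers, 2 rose, 0 fell and 2 did not pass the test. The part of these shifts in the results was not tested. In these bulk cultures, a change in the share of cells that express a gene and a change in RNA per cell cannot be told apart.

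Among subunit genes, NFKB1, whose protein is the canonical partner of RELA, stood at 87.3 and 85.9 CPM in SW480-shNT and at 54.9 and 57.4 CPM in SW480-shCYP1B1. On the log2 scale it fell by 0.62 (edgeR, SE 0.08, adjusted p = 9.96e-05). RELB, the transactivating subunit of the noncanonical arm, went from 48.1 and 51.2 CPM to 37.1 and 37.6 CPM (-0.41, SE 0.11, adjusted p = 0.00751). RELB lost its call without SW480-shNT replicate 2 (adjusted p = 0.0655) and without SW480-shCYP1B1 replicate 1 (adjusted p = 0.0517). Both genes were lower in each knockdown library than in either control library.

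NFKB2, the precursor gene of the noncanonical arm, moved the other way, from 113 and 108 CPM to 186 and 195 CPM. This was a rise of 0.78 on the log2 scale (edgeR, SE 0.10, adjusted p = 9.22e-05). RELA, the main transactivating subunit, went from 124 and 117 CPM to 183 and 185 CPM, or 0.61 on the log2 scale (SE 0.07, adjusted p = 2.39e-05). The RELA libraries of SW480-shCYP1B1 were the highest of all 8, and the 6 others lay between 116 and 124 CPM.

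The make-up of the subunit transcripts differed between these groups as well. Over the summed FPKM of NFKB1, NFKB2, RELA, RELB and REL, the remaining family member, NFKB2 held 23.0% and 22.4% in SW480-shNT and 30.6% and 31.4% in SW480-shCYP1B1. NFKB1 held 16.3% and 16.4% in SW480-shNT and 8.30% and 8.48% in SW480-shCYP1B1. In the RKO groups NFKB1 held 13.6% to 17.4% and NFKB2 26.6% to 35.3%. RELB went from 17.6% and 19.1% to 11.0% and 10.9%, and RELA from 41.0% and 39.4% to 49.1% and 48.3%. The FPKM ratio of NFKB2 to NFKB1 was 1.42 and 1.37 in SW480-shNT and 3.69 and 3.70 in SW480-shCYP1B1. Shares are given without a test, because with 2 libraries on each side the smallest p of an exact permutation test is 0.333.

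**Figure D2:**
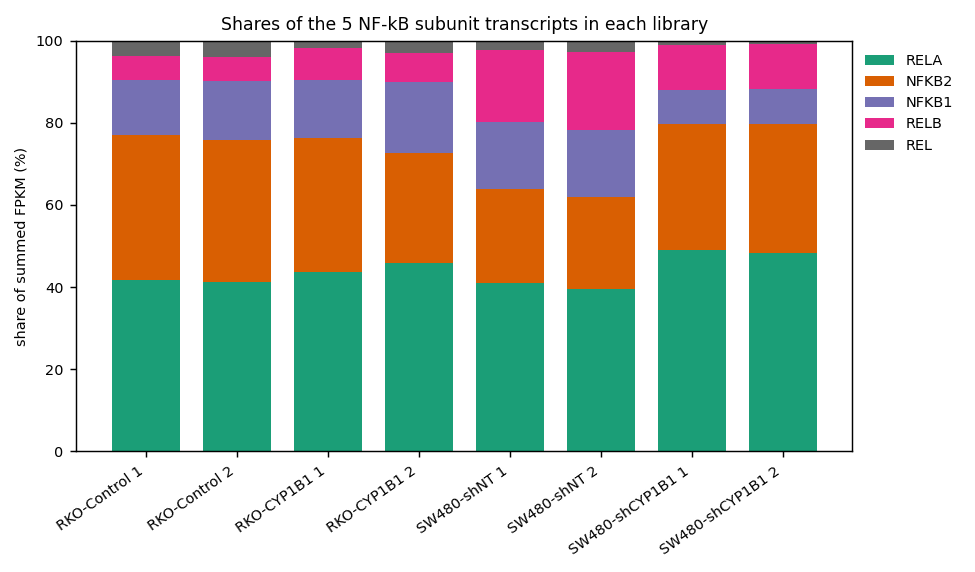
Share of the summed FPKM of the 5 subunit genes (y axis, %) in each of the 8 libraries (x axis); each colour is a gene. The NFKB1 share is near 8% in the SW480-shCYP1B1 libraries and between 13.6% and 17.4% in the other 6.

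NFKBIA, the inhibitor that is resynthesised first after activation and returns RELA to the cytoplasm, fell from 90.3 and 94.7 CPM to 51.2 and 54.4 CPM. The fall was -0.81 on the log2 scale (edgeR, SE 0.09, adjusted p = 3.33e-05). NFKBIE, a related inhibitor of the same ankyrin-repeat family, went from 29.1 and 27.0 CPM to 34.9 and 33.2 CPM. At 0.28 (SE 0.10, adjusted p = 0.0414) NFKBIE was the smallest change of the 10. Its call was lost with scaling by library size only (adjusted p = 0.0791), with the replicate number as a block (adjusted p = 0.0534), and without either RKO-Control library, either SW480-shNT library or either SW480-shCYP1B1 library (adjusted p from 0.0571 to 0.202).

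TNFAIP3, which removes activating ubiquitin chains and so ends signalling, fell from 25.3 and 23.0 CPM to 9.75 and 8.93 CPM. On the log2 scale it changed by -1.37 (edgeR, SE 0.15, adjusted p = 2.58e-05). TNFAIP2 had the largest change of the 10 genes, from 371 and 375 CPM to 134 and 131 CPM (-1.49, SE 0.08, adjusted p = 2.09e-07). BIRC3 went from 46.2 and 43.8 CPM to 20.3 and 19.2 CPM (-1.19, SE 0.18, adjusted p = 2.30e-04), and ICAM1 from 328 and 314 CPM to 183 and 195 CPM (-0.76, SE 0.09, adjusted p = 4.78e-05). For each of these genes the highest knockdown library was below the lowest control library, yet above every RKO library.

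With CYP1B1 overexpression in RKO, few of the 10 genes changed. TNFAIP2 rose, NFKB2 and BIRC3 fell, and the remaining 7 did not pass the test. Over all tested genes, 13.8% were called higher and 13.8% lower (27.6% in all), so 3 of 10 is near the background of this comparison. Libraries did not overlap between the groups for 7 of the 10 genes, compared with 58.8% of all tested genes. The median log2 fold change of the 10 genes was -0.04, with 0.00 over all tested genes.

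TNFAIP2 stood at 28.1 and 29.8 CPM in RKO-Control and at 38.3 and 43.7 CPM in RKO-CYP1B1. It rose by 0.50 on the log2 scale (edgeR, SE 0.08, adjusted p = 0.00117), and it passed the test under all 18 alternatives (adjusted p up to 0.0281). NFKB2 went from 171 and 161 CPM to 141 and 109 CPM, or -0.41 on the log2 scale (SE 0.10, adjusted p = 0.0137). BIRC3 went from 10.4 and 10.8 CPM to 7.89 and 4.60 CPM (-0.77, SE 0.20, adjusted p = 0.0146). The overexpression libraries differed 1.71-fold from each other for BIRC3 and 1.29-fold for NFKB2.

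Both falls in RKO kept their direction under all 18 alternatives, but their calls rested on both RKO-Control libraries and on the setting. Without RKO-Control replicate 1, NFKB2 stood at -0.36 (adjusted p = 0.106) and BIRC3 at -0.79 (adjusted p = 0.0655). Without RKO-Control replicate 2, they stood at -0.44 (adjusted p = 0.0647) and -0.74 (adjusted p = 0.0949). Leaving out RKO-CYP1B1 replicate 1 or 2 kept both calls but moved BIRC3 to -1.21 or -0.43, and NFKB2 to -0.60 or -0.23. With the RKO libraries fitted alone, neither passed (adjusted p = 0.0645 for NFKB2 and 0.0793 for BIRC3), nor did they with limma on log2(FPKM + 1) without a filter (adjusted p = 0.0548 and 0.0583).

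The other 7 genes did not pass in RKO. TNFAIP3 stood at 7.79 and 8.21 CPM in controls and at 6.65 and 5.59 CPM with overexpression (-0.39, SE 0.16, adjusted p = 0.101, edgeR). NFKBIA stood at 38.3 and 36.2 CPM and at 39.6 and 33.6 CPM, and ICAM1 at 119 and 118 CPM and at 126 and 102 CPM, with overlapping groups in both cases (log2 fold changes of -0.02, SE 0.10, and -0.06, SE 0.09). NFKB1 was 71.6 and 72.4 CPM in controls and 67.0 and 77.7 CPM with overexpression, again overlapping (0.01, SE 0.08). RELA (124 and 118, then 116.1 and 115.7 CPM), RELB (15.2 and 15.4, then 19.0 and 16.0 CPM) and NFKBIE (18.3 and 18.5, then 21.4 and 20.8 CPM) did not overlap between groups but did not pass (-0.06, SE 0.07; 0.20, SE 0.11; and 0.20, SE 0.11; adjusted p from 0.202 to 0.542). Without RKO-CYP1B1 replicate 1, TNFAIP3 and ICAM1 passed as lower (adjusted p = 0.0350 and 0.00546), making 4 genes lower, and without replicate 2 RELB passed as higher (adjusted p = 0.0457), making 2 higher. ICAM1 stood at -0.22 and 0.09 in these fits. Over all genes, the share called in RKO ranged from 12.3% without RKO-Control replicate 2 to 38.7% without RKO-CYP1B1 replicate 1.

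**Figure D3:**
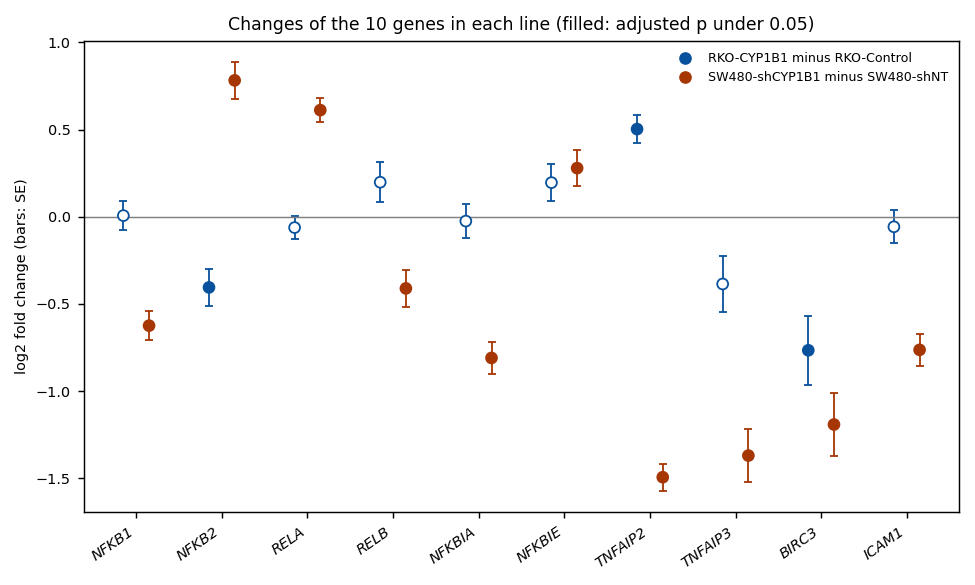
Log2 fold change (y axis, bars are SE) of the 10 genes (x axis) with CYP1B1 overexpression in RKO (blue) and with the CYP1B1 hairpin in SW480 (brown); filled points had an adjusted p under 0.05. All 10 SW480 points are filled, from -1.49 for TNFAIP2 to 0.78 for NFKB2, and 3 RKO points are filled.

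The difference between the lines was tested directly, as the CYP1B1-high minus CYP1B1-low effect in RKO minus that in SW480. It passed for 8 of the 10 genes, 6 with a lower value in RKO and 2 with a higher one. Of all tested genes, 42.6% passed, 21.6% lower and 21% higher. BIRC3 differed by -1.96 (SE 0.27, adjusted p = 1.69e-04, edgeR) and TNFAIP3 by -1.76 (SE 0.22, adjusted p = 9.90e-05). TNFAIP2 differed by -0.99, NFKBIA by -0.83, ICAM1 by -0.82 and NFKB1 by -0.62 (adjusted p from 4.52e-05 to 0.00156). RELA differed by 0.55 (SE 0.10, adjusted p = 8.52e-04) and NFKBIE by 0.47 (SE 0.15, adjusted p = 0.0229).

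NFKB2 was lower in the CYP1B1-high group of each line, by 0.41 in size in RKO and 0.78 in SW480, and the difference between those effects did not pass (0.38, SE 0.15, adjusted p = 0.0586). That difference passed without RKO-CYP1B1 replicate 2 (0.55, adjusted p = 1.13e-06), and with RLE scaling, DESeq2, no filter or the replicate number as a block (adjusted p from 0.0236 to 0.0475). BIRC3 was called with the same sign of fold change in both lines, lower with CYP1B1 overexpression and lower with CYP1B1 knockdown. TNFAIP2 rose with overexpression and fell with knockdown. Of all tested genes, 9.11% were called in both lines with the same sign of fold change and 6.59% with opposite signs, as NFKB2 and TNFAIP2 were. NFKBIE lost its call for the difference without either RKO-Control library, SW480-shNT replicate 2 or SW480-shCYP1B1 replicate 1 (adjusted p from 0.0592 to 0.0807).

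Ordered over the 4 groups, SW480-shNT had the highest mean of 7 genes and RKO-CYP1B1 the lowest mean of 5. Those 5 were RELA, NFKBIA, TNFAIP3, BIRC3 and ICAM1, and only BIRC3 among them was called lower than in RKO-Control. Such orders and overlaps were not counted over all tested genes, so no background share is given. Neighbouring groups whose libraries overlapped were the RKO groups for NFKB1, NFKBIA and ICAM1, RKO-CYP1B1 and SW480-shNT for NFKB2, and RKO-Control and SW480-shNT for RELA. RELB, NFKBIE, TNFAIP2, TNFAIP3 and BIRC3 had no overlapping neighbours. For NFKB1, SW480-shCYP1B1 was the lowest group at 56.2 ± 1.79 CPM, below RKO-Control at 72.0 ± 0.611 CPM (SD, n = 2).

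Other genes of the pathway were counted from a list of 112, of which 102 were tested. In SW480, 24 of the 102 rose and 32 fell (54.9% called). In RKO, 8 rose and 23 fell (30.4% called), but 2 rose and 14 fell without RKO-Control replicate 2, 14 fell without RKO-Control replicate 1, and 15 or 13 rose without RKO-CYP1B1 replicate 1 or 2. Taken over both directions, both shares were near the background of their comparison, 50.6% and 27.6%. By direction that background was even, 25.3% each way in SW480 and 13.8% each way in RKO. The pathway counts with all libraries were not even, most clearly the 8 and 23 in RKO. Among genes with a mean of at least 1 CPM in the line, the median log2 fold change was -0.15 over 97 pathway genes in SW480 and -0.08 over 81 in RKO, with 0.00 over all genes at that level in each line.

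Upstream, the genes of the kinase complex that marks the inhibitors did not pass the test with all libraries and TMM scaling. CHUK and IKBKB, the catalytic subunit genes, and IKBKG, their scaffold gene, had values between -0.20 and 0.48 in the lines (adjusted p from 0.0659 to 0.900, edgeR). In SW480, IKBKB (-0.20) was called lower under 5 of 18 alternatives, among them scaling by library size only (-0.25, adjusted p = 0.0336) and leaving out RKO-CYP1B1 replicate 1 or 2 (adjusted p = 0.0313 and 0.0308). IKBKG (0.48) was called higher there with each line fitted on its own (adjusted p = 0.0200), and stood between 0.28 without SW480-shCYP1B1 replicate 2 and 0.66 without SW480-shCYP1B1 replicate 1. MAP3K14, the kinase that drives processing of the NFKB2 product, fell in RKO from 23.2 and 21.2 CPM to 16.2 and 15.6 CPM (-0.48, SE 0.11). In SW480 it rose from 20.0 and 20.5 CPM to 29.0 and 30.9 CPM (0.56, SE 0.11). TRAF3, whose protein holds that kinase at a low level, did the reverse in transcript level, with no protein measured here. It rose in RKO from 41.7 and 45.4 CPM to 60.8 and 73.9 CPM (0.63, SE 0.10) and fell in SW480 from 125 and 124 CPM to 79.9 and 70.6 CPM (-0.72, SE 0.10). MAP3K14 lost its RKO call without RKO-Control replicate 1 (adjusted p = 0.0752).

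Of the partners of TRAF3, TRAF2 rose in RKO (0.40, SE 0.08) and stood at 0.04 in SW480 (adjusted p = 0.708), and BIRC2, a close relative of BIRC3, fell in RKO (-0.84, SE 0.12) and stood at 0.10 in SW480 (adjusted p = 0.541). TRAF2 lost its RKO call without RKO-Control replicate 2 (adjusted p = 0.0538). RBCK1, a subunit of the ligase that builds linear ubiquitin chains, went from 177 and 193 CPM to 91.9 and 68.1 CPM in RKO (-1.21, SE 0.12, adjusted p = 8.36e-05). Its level in SW480 rose by 0.31 (SE 0.11). Over all tested genes, 27.6% were called in RKO and 50.6% in SW480. Of 25 kinases and ubiquitin ligases, 3 rose and 7 fell in RKO (40% called), and 4 rose and 6 fell in SW480 (40% called). Of 29 receptors and adaptors, 0 rose and 5 fell in RKO (17.2% called), and 7 rose and 9 fell in SW480 (55.2% called). The receptor genes CD40 (1.51, SE 0.23) and TNFRSF11A (1.67, SE 0.57) had the largest rises of these in SW480, the latter on 9 and 2 counts in SW480-shNT and 19 and 15 counts in SW480-shCYP1B1. TNFRSF11A lost its call without SW480-shNT replicate 2 (0.98, adjusted p = 0.187) and without SW480-shCYP1B1 replicate 1 or 2 (adjusted p = 0.127 and 0.0559), and stood at 3.08 without SW480-shNT replicate 1. On the log2(FPKM + 1) scale, which understates changes of low genes, CD40 stood at 0.77 and TNFRSF11A at 0.09 (limma, adjusted p = 0.217 for the latter).

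Among the remaining inhibitors and feedback genes, 2 of 12 rose and 4 fell in SW480 (50% called). In RKO 1 rose and 2 fell (25% called). Over all tested genes, 50.6% were called in SW480 and 27.6% in RKO. NFKBIZ, a nuclear member of the inhibitor family that acts as a coactivator, fell in SW480 from 9.17 and 11.4 CPM to 2.05 and 1.83 CPM (-2.41, SE 0.20, adjusted p = 3.6e-06, edgeR). It stood at -1.25 on the log2(FPKM + 1) scale in SW480, and at -0.36 in RKO (edgeR, adjusted p = 0.106). The RKO value was called lower without RKO-CYP1B1 replicate 1 (-0.45, adjusted p = 0.0231), and stood at -0.55 and -0.14 without RKO-Control replicate 1 and 2. BCL3, a nuclear partner of the processed NFKB1 and NFKB2 products, rose in SW480 from 26.5 and 25.2 CPM to 43.6 and 40.4 CPM (0.70, SE 0.17). In RKO it stood at -0.38 (adjusted p = 0.159), and was called lower without RKO-CYP1B1 replicate 1 (-0.76, adjusted p = 2.3e-04) but stood at -0.08 without replicate 2. CYLD, a deubiquitinase that limits signalling, fell in both lines, by 0.49 in RKO and 0.76 in SW480. TNIP1, a binding partner of the TNFAIP3 product, passed in neither (-0.13 and 0.06). NFKBIB rose in RKO (0.36, SE 0.11, adjusted p = 0.0348) and stood at -0.26 in SW480 (adjusted p = 0.0699); the RKO call was lost without either RKO-Control library, RKO-CYP1B1 replicate 2 or either SW480-shNT library (adjusted p from 0.0660 to 0.147). The SW480 value of NFKBIB was called lower under 6 of 18 alternatives, among them each line on its own (adjusted p = 0.00261) and leaving out RKO-CYP1B1 replicate 1 or 2 (adjusted p = 0.0146 and 0.0149), and stood between -0.38 without SW480-shCYP1B1 replicate 2 and -0.13 without SW480-shCYP1B1 replicate 1.

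REL, the fifth subunit gene, was lower after manipulation in each line. It stood at 35.8 and 35.9 CPM in RKO-Control and at 14.2 and 24.2 CPM in RKO-CYP1B1 (-0.90, SE 0.20, adjusted p = 0.00653, edgeR). In SW480 it went from 20.9 and 24.7 CPM to 12.2 and 10.8 CPM (-0.99, SE 0.21, adjusted p = 0.00205). The RKO value was -0.57 without RKO-CYP1B1 replicate 1, and without RKO-Control replicate 2 it did not pass (-0.90, adjusted p = 0.0543).

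Target genes outside the 10 went in both directions: of 28 tested, 10 rose and 11 fell in SW480 (75% called). In RKO 4 rose and 8 fell (42.9% called). Over all tested genes, 50.6% were called in SW480 and 27.6% in RKO. The chemokine genes CXCL1 (-4.01, SE 0.29), CXCL2 (-4.01, SE 0.48), CXCL3 (-3.93, SE 0.34) and CCL20 (-4.03, SE 0.76) had the largest falls in SW480. CXCL1 went from 41.6 and 37.5 CPM to 1.56 and 3.34 CPM. CCL20 had 173 and 138 counts in SW480-shNT and 1 and 17 in SW480-shCYP1B1, and its fit gave -7.03 without SW480-shCYP1B1 replicate 2, where 1 count remained on that side. On the log2(FPKM + 1) scale, CCL20 stood at -2.30 and CXCL2 at -2.48. MMP9 (1.95, SE 0.25), a gelatinase gene, and PLAU (1.40, SE 0.13), the urokinase gene, rose in SW480. In RKO, IER3, an early-response gene, fell from 167 and 164 CPM to 79.9 and 41.6 CPM (-1.44, SE 0.21), while the immunoproteasome gene PSMB9 (1.05, SE 0.14) and the surface glycoprotein gene CD83 (0.60, SE 0.14) rose. CD83 lost its call without RKO-Control replicate 2 (adjusted p = 0.0768).

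**Figure D4:**
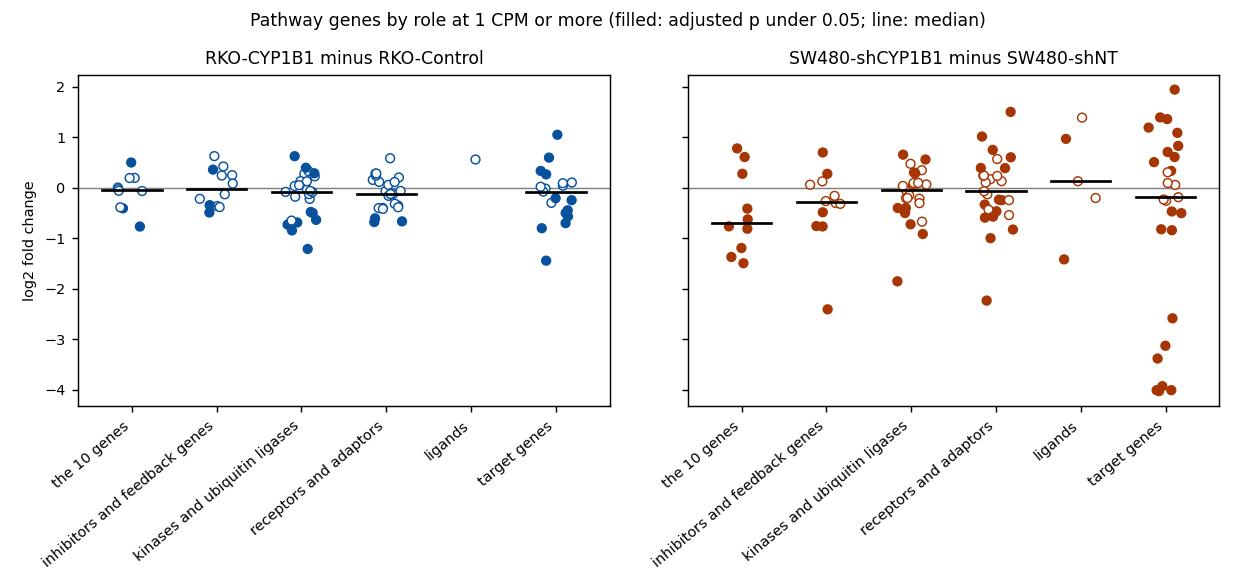
Log2 fold change (y axis) of tested NF-kB pathway genes with a mean of at least 1 CPM in the line, grouped by role (x axis), in RKO (left) and SW480 (right); filled points had an adjusted p under 0.05 and lines are medians of groups with 3 genes or more. REL is not drawn. In SW480 the median of the 10 genes lies at -0.69, and target genes spread from -4.03 to 1.95.

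The genes whose profiles lay closest to each of the 10 were found by the root mean square difference of centred log2 CPM over the 8 libraries, among 12615 candidates at a mean of at least 1 CPM. They were PCGF2 (0.03) and ADIPOR2 (0.05) for RELA, SMG6 (0.04) and HNRNPH1 (0.04) for NFKB1, ITPKC (0.07) and GNL3 (0.09) for NFKB2, and NKAIN1 (0.08) and CYB5B (0.09) for RELB. For the inhibitors they were GPR137 (0.08) and SPRY2 (0.09) for NFKBIA, and URI1 (0.04) and PSMG2 (0.04) for NFKBIE. For the inducible genes they were PCMTD2 (0.09) and TRIM2 (0.16) for TNFAIP3, ATP6V0A4 (0.22) and BTD (0.23) for TNFAIP2, GPER1 (0.18) and NICN1 (0.24) for BIRC3, and UTP14A (0.05) and MRPS33 (0.07) for ICAM1. No member of the 10 was among the closest pair of another. This likeness is a description over 8 libraries of 2 lines.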

How the data were processed

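Per the labels' protocols, total RNA from cultured RKO and SW480 cells was made into stranded mRNA libraries. The authors deposited raw counts per gene and FPKM for the same 16829 genes and 8 libraries, with GRCh38.p13 named in the submitters' processing notes. Aligner, counter, annotation and use of strand in counting were not given in the sources used here. Deposited FPKM values equal the deposited counts divided by the library total and a length per gene, and were used only for levels between genes, subunit shares and alternatives. Groups and replicate numbers came from the sample titles.

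Counts were filtered with filterByExpr (minimum count 10, minimum total 15), scaled with TMM and fitted over all 8 libraries with 1 coefficient per group in edgeR 4.0.16 (R 4.3.3), leaving 4 residual degrees of freedom. SE is the log2 fold change divided by the square root of F. The 10 genes, the pathway lists and the rules were chosen with earlier results of these data known. The text names all 10 genes, CYP1B1, 13 fixed pathway genes, the 4 pathway genes with the largest non-overlapping called change each way per line, and the 2 closest profiles of each of the 10 genes. IL17A of the pathway list was not among the table's genes. Alternatives were RLE or no scaling, other filters (none, or 1 CPM in 2 libraries), DESeq2 1.42.0, limma 3.58.1 on log2 of FPKM plus 1 or plus 0.1, each line alone, a replicate block, and leaving out each library in turn. On simulated data over 14026 genes with the real means and library sizes and a small fixed dispersion, 95.5% of 67 genes changed 1.5-fold were recovered for RKO and 97% for SW480. Of the simulated calls, 5.29% were false for RKO and 3.88% for SW480. The changed genes were all well counted, and the dispersion was the same in all groups. The real RKO-CYP1B1 libraries differed from each other by a median of 0.19 on the log2 scale, more than the other groups, so recovery in RKO may be overstated. Library depth, 31550173 to 34921085 counts, puts the lowest of the 10 genes (BIRC3 in RKO-CYP1B1 replicate 2) at 154 counts.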

Additional observations from a re-analysis of the deposited data

Results flagged for a closer look

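For 8 of the 10 genes, the CYP1B1-high minus CYP1B1-low effect differed between RKO and SW480 in a direct test of the difference (edgeR, adjusted p under 0.05), against 42.6% of all 14157 tested genes. As RKO minus SW480 on the log2 scale, the values were -1.96 for BIRC3, -1.76 for TNFAIP3, -0.99 for TNFAIP2, -0.83 for NFKBIA, -0.82 for ICAM1 and -0.62 for NFKB1, and 0.55 for RELA and 0.47 for NFKBIE. Overexpression raised CYP1B1 to 437 CPM or more in RKO, whereas in SW480 it moved between 2.20 CPM and 0.301 CPM, so the contrasts differ in line, method and size of the CYP1B1 change at the same time and these cannot be told apart.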

How the results depend on the processing

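All 10 genes kept their direction in SW480 under the 18 alternatives, while the calls of RELB and NFKBIE were lost in some of them. In RKO, 0 of the 10 were called lower when each line was fitted alone or with limma on log2(FPKM + 1) without a filter, and leaving out a library gave 0 to 4 lower and 1 to 2 higher. Of the other pathway genes in RKO, 5 were called higher with each line alone, and leave-outs gave 2 to 15 higher and 14 to 30 lower. For the difference between lines, leave-outs gave 1 to 3 called higher. Leave-outs also have fewer libraries in a fit, and the cause of these moves was not tested. Values near 0 changed sign. NFKB1 in RKO stood at -0.011 with library size only, and -0.014, -0.015 and -0.014 with limma on log2(FPKM + 1), log2(FPKM + 0.1) and without a filter. TRAF2 in SW480 stood at -0.0045, -0.0042, -0.0044 and -0.0042 in the same order. RELA between the controls stood at 0.038 with RLE, 0.0073 with the 1 CPM filter and 0.038 with DESeq2. Leave-outs ranged from -0.10 to 0.11 for NFKB1, -0.15 to 0.090 for NFKBIA, -0.22 to 0.089 for ICAM1 and -0.10 to 0.16 for CHUK in RKO, from -0.25 to 0.15 for CHUK in SW480, and from -0.063 to 0.032 for RELA between the controls.

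Same-numbered libraries did not deviate together over all genes (r = -0.01 in each line, across genes). With 2 libraries per group, this cannot tell whether same-numbered libraries shared a batch that touched some genes. The sample titles give them only a shared number. With the replicate number as a block, 2 of the 10 genes were called higher and 7 lower in SW480, 1 higher and 2 lower in RKO, and all genes called numbered 6960 in SW480 and 3810 in RKO.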

Other observations

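The receptor genes TNFRSF1B and TLR4 and the ligand genes LTB and TNF were below 1 CPM in every RKO library and present in SW480; the genes given here were chosen after their values were seen. TNFRSF1B, a receptor for TNF, stood between 0.389 and 0.631 CPM in the 4 RKO libraries, at 372 and 362 CPM in SW480-shNT and at 300.3 and 283 CPM in SW480-shCYP1B1 (-0.33, SE 0.08, adjusted p = 0.00615 for the knockdown, edgeR). TLR4, the lipopolysaccharide receptor gene, was at or below 0.0312 CPM in RKO and went from 28.8 CPM or more in both SW480-shNT libraries to 6.97 and 5.74 CPM in SW480-shCYP1B1 (-2.23, SE 0.19). LTB, a ligand of the noncanonical arm, was at or below 0.175 CPM in RKO and went from 24.7 and 23.2 CPM to 8.52 and 9.38 CPM in SW480 (-1.42, SE 0.20). IKBKE, a relative of the inhibitor kinases, fell in SW480 from 51.1 and 47.5 CPM to 14.6 and 12.7 CPM (-1.85, SE 0.14, adjusted p = 1.89e-06), and stood at 12.3 and 10.2 CPM in RKO-Control and 12.5 and 14.9 CPM in RKO-CYP1B1 (0.28, adjusted p = 0.176). The main TNF receptor gene TNFRSF1A rose in SW480, from 86.5 and 87.2 CPM to 179 and 173 CPM (1.02, SE 0.07). TNF itself stood at 9.78 and 7.33 CPM in SW480-shNT and 7.39 and 7.49 CPM in SW480-shCYP1B1, with overlapping libraries, and at 0.0623 CPM or less in RKO.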
